A study of Homo sapiens with 6 samples.

Results

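The gaps of 60 to 100 bases between consecutive exons were examined in an exon annotation made for the human glioma line U-87 MG, an established cell line. A gap counted when 2 consecutive, non-overlapping exons of 1 isoform enclosed it, and it was counted once per gene however many isoforms listed it. Of 138594 distinct introns, 7114 had such a length, which was 5.13% (95% Wilson interval 5.02 to 5.25%). Length chose these introns, so their lengths are described and not tested. The annotation belongs to a study of 6 libraries of poly(A)-selected RNA, 3 from cells kept for 72 h in medium with the solvent DMSO, at 10 ul in 10 ml, and 3 from cells kept as long with EPZ015666 at 10 uM. EPZ015666 inhibits PRMT5, an enzyme that methylates arginines. The study asked how PRMT5 bears on detained introns, which stay in polyadenylated nuclear RNA after the other introns have been removed. Both groups share the 1 annotation, in hg19 coordinates, and it has 0 columns of values per library. Levels, depth and replicate spread are therefore unknown, the groups were not compared, and intervals given with shares cover counting error only.

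An intron is removed after its 5′ end (the donor), a branch point and its 3′ end (the acceptor) have been recognised by the spliceosome. In human genes most exons are short and most introns long, and splice sites are commonly paired across the exon. Across a very short intron they can instead be paired over the intron itself. A lower length limit exists because the donor, the branch point and the acceptor have to be bound without colliding. PRMT5 methylates the Sm proteins that form the core of spliceosomal ribonucleoprotein particles, and short, GC-rich introns are common among introns described as detained or retained.

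A set of 8 introns, from genes with short introns in various numbers, is printed to show how little sequence such an intron holds and where its splice signals lie. The first 6 bases (donor) and the last 3 (acceptor) are in capitals, and each is written 5′ to 3′ on the gene's strand. They were read from GENCODE v29 transcripts that keep the intron inside an exon, and matched to the annotation by gene name, intron length and flanking exon lengths.
FLNA intron 36 of 45: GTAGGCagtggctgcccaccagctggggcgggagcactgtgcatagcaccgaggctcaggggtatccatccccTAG
LAMB2 intron 25 of 31: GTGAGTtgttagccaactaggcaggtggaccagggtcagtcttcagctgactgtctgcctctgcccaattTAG
COL7A1 intron 92 of 116: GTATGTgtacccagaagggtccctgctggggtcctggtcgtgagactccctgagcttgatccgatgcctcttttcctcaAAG
GNPTG intron 1 of 10: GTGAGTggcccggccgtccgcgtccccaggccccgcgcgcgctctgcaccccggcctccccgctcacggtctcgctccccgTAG
TBL3 intron 15 of 20: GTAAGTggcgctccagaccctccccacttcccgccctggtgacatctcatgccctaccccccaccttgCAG
HES4 intron 1 of 3: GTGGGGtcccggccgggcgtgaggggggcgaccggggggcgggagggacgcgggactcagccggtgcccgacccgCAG
PPP1R35 intron 2 of 3: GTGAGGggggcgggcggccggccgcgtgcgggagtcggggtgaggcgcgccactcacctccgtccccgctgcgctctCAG
GAPDH intron 5 of 8: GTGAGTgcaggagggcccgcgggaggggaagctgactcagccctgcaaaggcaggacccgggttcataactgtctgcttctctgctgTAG

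The GRCh38 positions of these introns, all between coding exons, were FLNA chrX:154352925-154353000 (minus strand), LAMB2 chr3:49123374-49123446 (minus strand), COL7A1 chr3:48571161-48571242 (minus strand), GNPTG chr16:1352018-1352101 (plus strand), TBL3 chr16:1977285-1977355 (plus strand), HES4 chr1:999788-999865 (minus strand), PPP1R35 chr7:100435768-100435847 (minus strand), GAPDH chr12:6537011-6537100 (plus strand). Filamin A (FLNA) crosslinks actin, laminin beta 2 (LAMB2) is a chain of basement membrane laminins, and COL7A1 is the collagen of anchoring fibrils. GNPTG is a subunit of the enzyme that tags lysosomal hydrolases, TBL3 acts in ribosome biogenesis, HES4 is a transcriptional repressor, and GAPDH is a glycolytic enzyme. Their GC content was 65.8% in FLNA, 53.4% in LAMB2, 56.1% in COL7A1, 79.8% in GNPTG, 64.8% in TBL3, 83.3% in HES4, 80% in PPP1R35, 62.2% in GAPDH. The letters GGG, with overlapping matches counted, occurred 14 times in the HES4 intron, 8 times in that of PPP1R35 and 0 times in those of GNPTG and TBL3.

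A further 4 are AT-rich introns of similar length, printed because the introns of 60 to 100 bases spanned both kinds of sequence.
CLK4 intron 15 of 15: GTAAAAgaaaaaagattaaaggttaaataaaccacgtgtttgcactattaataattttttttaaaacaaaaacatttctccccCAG
EIF4G2 intron 7 of 21: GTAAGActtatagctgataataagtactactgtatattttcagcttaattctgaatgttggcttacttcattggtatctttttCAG
ANAPC4 intron 23 of 28: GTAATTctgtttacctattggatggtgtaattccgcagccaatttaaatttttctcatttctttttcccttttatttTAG
SRRM2 intron 6 of 17: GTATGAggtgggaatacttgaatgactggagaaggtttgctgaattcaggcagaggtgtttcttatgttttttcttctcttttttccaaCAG

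These lie in GRCh38 at CLK4 chr5:178603758-178603843 (minus strand), EIF4G2 chr11:10804051-10804136 (minus strand), ANAPC4 chr4:25414386-25414465 (plus strand), SRRM2 chr16:2759048-2759139 (plus strand). CLK4 is a kinase of SR splicing factors, EIF4G2 is a translation initiation factor, ANAPC4 is a subunit of the anaphase-promoting complex, and SRRM2 is an SR-related protein of the spliceosome. GC content was 25.6% in CLK4, 30.2% in EIF4G2, 30% in ANAPC4, 39.1% in SRRM2. Pyrimidines made up 95% of the 20 bases before the final 3 in ANAPC4 and 55% in CLK4, so the stretch before the acceptor differed widely among introns of this kind.

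The 1423 introns of 60 to 100 bases with a sequence, in 1015 genes, had a median GC content of 62.6% (quartiles 52.7 and 69.1%, range 13.6 to 89.1%). At least 60% GC was found in 59% of them, and under 40% in 13.9%. Introns of over 100 to 200 bases read in the same way (1831) had a median of 59.3%, and those of over 200 to 1000 bases (3405) one of 53.5%, so the median was lower in each longer class. GT began 1421 of the 1423 and GC the other two, while AG ended all 1423. AT-AC ends were found in 0 of 1423, which allows up to 0.211% by 3 counts of the total. The most frequent donor was GTGAGT at 15.4%, followed by GTGAGG at 9.70%, GTGAGC at 8.50% and GTAAGT at 5.76%. In introns of over 100 to 200 bases GTAAGT made up 7.70% (interval 6.57 to 9.01%), which overlaps the interval of the short introns (4.67 to 7.10%). In introns of over 200 to 1000 bases GTAAGT reached 9.46% and was second to GTGAGT at 14.4%. Pyrimidines made up a median of 75% of the 20 bases before the final 3 in all 3 length classes.

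Runs of guanine are known as signals that help to define short mammalian introns. The letters GGG were present in 78.6% of the 1423 introns and CCC in 83.1%, searched on the intron's own strand with overlapping matches counted. Per 100 bases there were 4.61 GGG and 4.63 CCC. Introns of over 100 to 200 bases had 4.07 and 3.87, and those of over 200 to 1000 bases 2.84 and 2.73. In the short introns GGG was thus no denser than CCC. Both were less dense in each longer class, as the median GC content was lower, so the density changed gradually with length. All these sequences come from introns that some reference transcript keeps, so they are a selected 1423 of the 7114.

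The length distribution rose steeply at 70 bases and had a single broad peak. Only 12 introns were 59 bases long, 1 was 60, 2 were 69, and 42 were 70 bases long. The most frequent length was 85 bases with 334 introns, and the mean over 5 neighbouring lengths was highest at 87 bases (321 per length). More than 300 introns were found at 9 lengths, all from 82 to 92 bases. The median of the 7114 was 87 bases (quartiles 81 and 93), against 1468 bases for all introns. The fall on the long side was gradual, with 180 introns at 100 bases, 212 at the next length, a mean of 185 per length over 100 to 110 bases and 86.4 over 150 to 200. The upper bound of 100 bases thus lies on a slope and separates no class, while the lower bound lies in a sparse region: 23 introns, 0.323% of the total, were 60 to 69 bases long. Lengths were spread evenly over the reading frame, since 32.7%, 34.1% and 33.2% of those of 70 to 99 bases left a remainder of 0, 1 and 2 on division by 3.

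**Figure D1:**
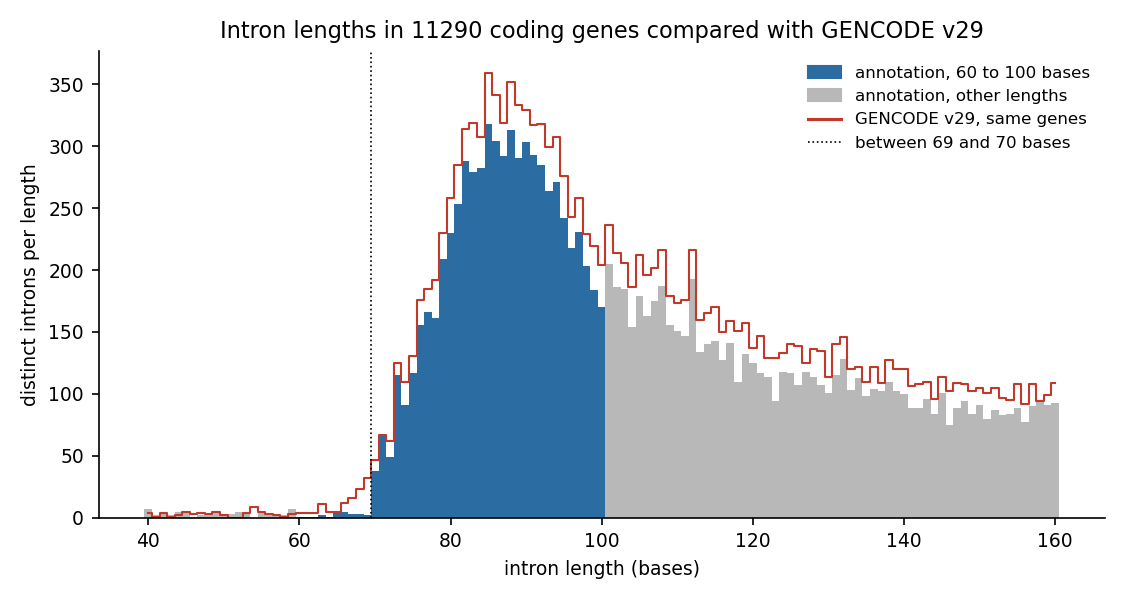
Distinct introns at each length from 40 to 160 bases in 11290 coding genes (bars, annotation for U-87 MG cells, with 60 to 100 bases in blue and other lengths in grey) and in the same genes of GENCODE v29 (red line). The blue bars follow the red line from 70 bases upward and fall below it left of the dotted line, where the annotation held 23 introns and the reference 116.

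The reference held more introns just below that step. In 11290 coding genes compared by name, the annotation listed 23 introns of 60 to 69 bases and the protein-coding transcripts of GENCODE v29 116, or 19.8 per 100. For 70 to 79, 80 to 89 and 90 to 100 bases the annotation listed 88.2, 89.4 and 88.8 per 100 reference introns. Of 85 reference introns of 60 to 69 bases between internal exons, 3 (3.53%, interval 1.21 to 9.87%) were listed with at least 1 of their flanking exons. For 27 (31.8%, interval 22.8 to 42.3%) the annotation instead held an exon as long as the intron and both its flanks together, and for 55 it held neither. Among 1122 reference introns of 70 to 79 bases, 88.5% were listed and 1.07% were joined in this way, and the joined share was 0.623 to 1.23% in each class from 80 to 5000 bases. The role of the alignment and assembly steps in this step at 70 bases was not tested. SRSF7, an SR splicing factor, held one of the rare members below it, an intron of 66 bases between exons of 107 and 276 bases.

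Most of the short introns were also introns of the reference. Among 6734 of them in genes compared by name, 95.1% had the length of a reference intron of the gene, and 5971 (88.7%) also had its flanking internal exons. All other introns gave 91.6% and 85.6%. Of the 5971, 96.5% lay between coding exons. Of these 5764, 48.4% lay between codons (phase 0), 29.4% after the first base of a codon (phase 1) and 22.2% after the second (phase 2), beside the 47.2%, 30.6% and 22.3% of all other introns.

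Many of them were also listed by the reference as kept in the RNA. An exon of another GENCODE transcript of the gene contained 1423 of the 5971 (23.8%, interval 22.8 to 24.9%), against 7.98% of the other introns of the same host genes and 5.83% of all other introns. The share varied with length but was nearly level from 80 to 200 bases. It was 37.9% (396 of 1045, interval 35 to 40.9%) at 70 to 79 bases, 22.2% at 80 to 89 and 19.3% at 90 to 100, near the 20.3, 19.9 and 21.2% of introns of over 100 to 120, over 120 to 150 and over 150 to 200 bases. Beyond that it fell to 15.8% over 200 to 500 bases and 2.06% over 1000 to 5000. Read in frame from the upstream exon, 61.6% of the 1330 coding introns with a sequence held a stop codon. A length divisible by 3 and no such stop were found together in 10.4% (138 of 1330), and the HES4 intron printed above, of 78 bases, was 1 of these. In the annotation itself 44 of the 7114 (0.618%, in 40 genes) lay inside a listed exon, against 818 (0.622%) of all other introns. In both groups it was each time a final exon. A donor shared with another listed intron was found for 1.19% of the short introns and 1.66% of the others.

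The 7114 introns were unevenly spread over genes. They lay in 3451 of the 12462 genes with introns (27.7%), of which 1450 (11.6% of the 12462) held at least 2 and 740 (5.94%) at least 3. Those 740 genes held 51.9% of all of them, while 2001 host genes held a single one. At the upper end 290 genes held at least 5 and 52 at least 10. Host genes were compact in their other introns too. The median length of the remaining introns was 2164 bases in genes with none, 1277 with 1, 796 with 2 and 418 with 3 or more, although genes with 3 or more had a median of 19 introns against 7 in genes with none. Among genes with 10 to 20 introns, the median span from first to last exon was 60919 bases with none and 12357 bases with 3 or more.

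COL7A1 held the most, 42 of its 116 introns (hg19 chr3:48601507-48632593). Their lengths ran from 70 to 98 bases with a median of 81.5, and the other 74 introns had a median of 179 bases. Collagen exons encode repeats of 3 amino acids, and 76 of the 115 internal exons of COL7A1 were a multiple of 9 bases long, including 46 of the 69 beside a short intron. The other extracellular matrix genes at the top were LAMA5 with 22 of 79, LAMB2 with 18 of 31 and HSPG2, which encodes the proteoglycan perlecan, with 17 of 96. FLNA held 20 of 45, the phosphatase-like adaptor SBF1 20 of 39, and the mechanosensitive channel PIEZO1 18 of 52. CPSF1, the largest subunit of the factor that recognises the polyadenylation signal, held 25 of 38.

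ANKRD36C and ANKRD36, near-identical ankyrin repeat genes on chromosome 2, had another arrangement. ANKRD36C held 31 of 86 and ANKRD36 23 of 74, with lengths of only 85 to 95 bases in both. Each of the 31 and each of the 23 lay between an upstream exon of 29 bases and a downstream exon of 73 bases. The introns in the reverse order, from a 73-base to a 29-base exon, had medians of 1678 bases (30 introns) and 1676 bases (22 introns). Short and long introns thus alternated: 28 of the 30 steps from 1 short intron to the next in ANKRD36C spanned exactly 2 introns, and the longest run of consecutive short ones was 1 in both genes. Because reads from copies this similar may not be told apart, which of the genes was transcribed is uncertain.

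**Figure D2:**
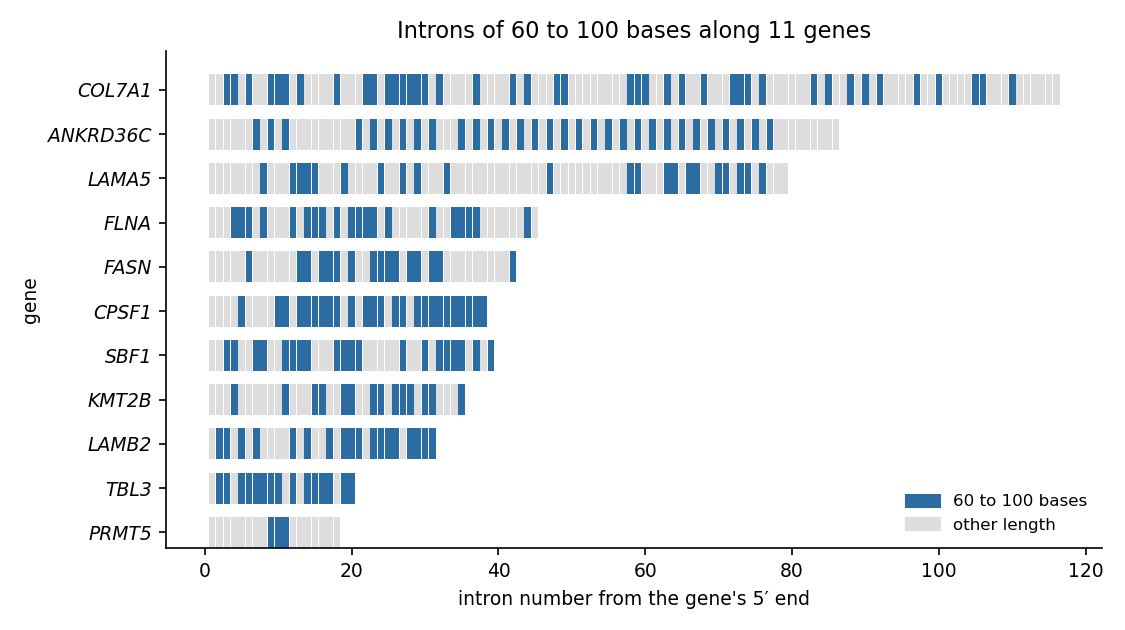
Introns of 11 genes in order from the 5′ end (horizontal axis, intron number), with those of 60 to 100 bases in blue and all others in grey. CPSF1 shows a run of 10 at its 3′ end, PRMT5 a run of 3 in its middle, and ANKRD36C an alternation with no 2 short introns side by side.

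Runs of adjacent short introns were common in a few genes. The longest were 10 in CPSF1 (introns 29 to 38, the last of the gene), 9 in DGAT1 (introns 6 to 14), which makes triacylglycerol, and 8 in BOP1 (introns 4 to 11), a ribosome biogenesis factor. In the CPSF1 run the lengths were 79, 82, 74, 85, 88, 78, 73, 74, 86 and 76 bases, and the exons between them ranged from 48 to 177 bases. BOP1 has a limit, since 10 of its 14 intron lengths were found in the reference gene. HES4 and PPP1R35, a centrosomal protein gene, were the genes with at least 3 introns all of which were short. The 3 of HES4 were 78, 78 and 93 bases and the 3 of PPP1R35 were 76, 80 and 97 bases. TBL3 held 15 of 20 and GNPTG 8 of 10.

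Counted over pairs of introns, a short intron was as frequent next to another as elsewhere in the same isoform. On the isoform with the most introns of each gene, every short intron was paired with each other intron. The second intron was short in 2244 of 13279 pairs of neighbours (16.9%) and in 21818 of 129270 other pairs (16.9%). An intron was counted once for each short intron of its isoform, so genes with many short introns weighed more. Both shares were above the 5.16% of all introns of the isoforms with the most introns. The equality rested on the repeat-rich genes: without COL7A1, ANKRD36, ANKRD36B and ANKRD36C, a set chosen after these values were seen, the shares were 16.9% and 15.5%. Averaged over the 1437 genes with at least 2, the share was 18.3% for neighbours and 16.5% for the rest. It was higher for neighbours in 481 of these genes and lower in 936. A gene with exactly 2 that are not adjacent always counts as lower, and 710 of all host genes held exactly 2. The split to be expected without clustering was not computed, so these counts do not show whether short introns cluster. Adjacent pairs numbered 1122. Pooled over genes, introns of other lengths had a median of 646 bases when next to a short one (10216 introns) and 1146 bases when not (38240 introns). Genes with more short introns also had shorter other introns, and whether the difference holds within genes was not tested.

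Exons beside short introns were slightly shorter than other exons. The upstream internal exon had a median of 115 bases (quartiles 81.0 and 157) and the downstream one 114 bases (82.8 and 153), against 122 bases beside other introns of the host genes and 124 bases in genes without a short intron. Within 3437 genes the mean log2 exon length beside short introns minus that beside other introns was -0.103 (SD over genes 0.755), a ratio of 0.931. The spread between genes was far larger than the difference, which was negative in 2034 genes and positive in 1345. With medians in place of means it was -0.0436. Both quartiles lay below those beside other introns of the host genes (88 and 165 bases on either side), as the medians did. Exons over 300 bases were 4.62% upstream and 4.06% downstream of a short intron, against 5.14 and 5.22% beside other introns of host genes and 7.74 and 7.76% in the remaining genes. Overlapping consecutive exons were measured as a merged exon, and flanks of short introns reached 210277 bases, in TTN. Exon lengths were not recomputed without isoforms that have overlaps. Exons under 50 bases made up 6.57% of upstream flanks (interval 6.01 to 7.18%) and 4.98% of downstream ones (4.47 to 5.54%), against 4.31% (4.13 to 4.50%) and 4.53% (4.35 to 4.73%) beside other introns of host genes. The downstream intervals overlap, as do those upstream for exons over 300 bases (4.15 to 5.14% and 4.94 to 5.35%). The short introns of ANKRD36 and ANKRD36C, which follow exons of 29 bases, are among the upstream ones. Exons enclosed by short introns on both sides numbered 1122, with a median of 116 bases and 3.12% over 300 bases. Of 6202 short introns between internal exons, 54.8% were shorter than both neighbouring exons and 12.5% longer than both.

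**Figure D3:**
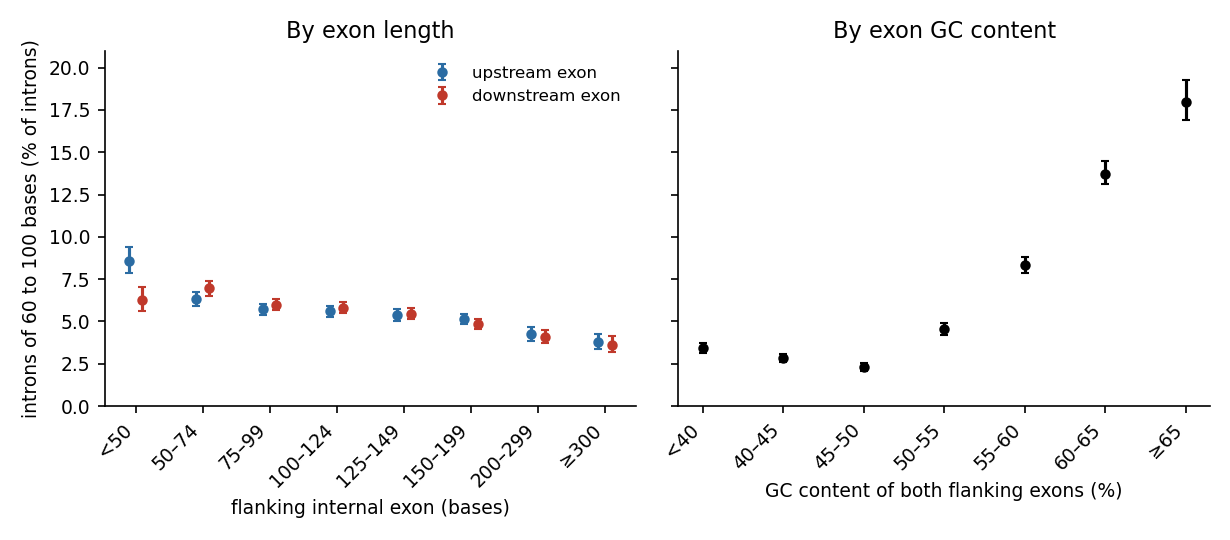
Share of introns that are 60 to 100 bases long (vertical axis, percent, with 95% Wilson intervals) by the length of the upstream (blue) or downstream (red) internal exon in bases on the left, and by the GC content of both flanking exons in percent on the right. By upstream exon the share is 8.60% under 50 bases and 3.80% at 300 and more, by downstream exon it is 6.28%, then 6.95% at the next length class, and 3.63% at 300 and more, and by GC content it rises from 2.29% at 45 to 50% GC to 18.0% at 65% and above.

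Exon composition differed far more between genes than exon length did. In the reference, upstream exons of short introns had a median GC content of 57.4%, against 50.5% for other introns of host genes and 47.1% for the remaining genes. By the GC content of both flanks, short introns made up 18.0% (707 of 3918, interval 16.9 to 19.3%) at 65% and above, 13.7% at 60 to 65%, 8.32% at 55 to 60%, 4.53% at 50 to 55% and 2.29% at 45 to 50%. Below that the share was larger again, 2.81% at 40 to 45% and 3.43% (518 of 15110, interval 3.15 to 3.73%) under 40%. Within 2877 genes the mean exon GC content beside short introns exceeded that beside other introns by 0.309 percentage points (SD over genes 4.77), higher in 1492 genes and lower in 1362.

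Short introns were rarer at the start of genes and more frequent at the end. Among 7034 on the isoform with the most introns, in genes with at least 3 introns that were not all short, 225 (3.20%, interval 2.81 to 3.64%) were the first intron and 609 (8.66%, interval 8.02 to 9.34%) the last, where an equal share per position would give 7.75% to each. Other introns of the same genes were the first in 6.56% and the last in 5.77%. The 7.75% holds for the short introns only, and an equal share for the others was not computed. On a scale from 0 for the first to 1 for the last intron, the mean over 3403 genes was 0.559 for short and 0.485 for other introns, a difference of 0.0736 (SD over genes 0.305), positive in 1982 genes and negative in 1199. Leaving out first and last introns gave 0.0457.

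The share of introns that were short was highest on chromosome 19, with 887 of 7063 (12.6%, interval 11.8 to 13.4%), followed by chromosome 16 with 9.0%, 17 with 7.06% and 22 with 6.88%. It was lowest on chromosome 4 with 133 of 5661 (2.35%, interval 1.99 to 2.78%) and chromosome 21 with 2.37%. Counted by genes, 43.3% of the genes of chromosome 19 held at least 1, and 19.5% of those of chromosome 4. Mean exon GC content in the reference was highest on chromosome 19 (59.2%), then 22 (56.0%), 16 (54.3%) and 17 (52.7%), and lowest on 13 (44.2%) and 4 (44.3%). How far GC content accounts for the order of the chromosomes was not tested. The ZNF genes of chromosome 19, which encode zinc finger transcription factors, stood apart, with 9 of 504 introns (1.79%, interval 0.942 to 3.36%) against 13.4% in its other genes. KMT2B, a histone methyltransferase, and ABCA7, a lipid transporter, held 14 each, and CC2D1A held 13. On chromosome 16 the leading genes were PIEZO1, TBL3 and the formin FHOD1, which held 11 of 23, level with PKD1 (11 of 46). On chromosome 17 they were FASN, the fatty acid synthase, with 16 of 42, the histone demethylase KDM6B with 10 of 23 and NEURL4 with 10 of 28, level with FLII (10 of 29).

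**Figure D4:**
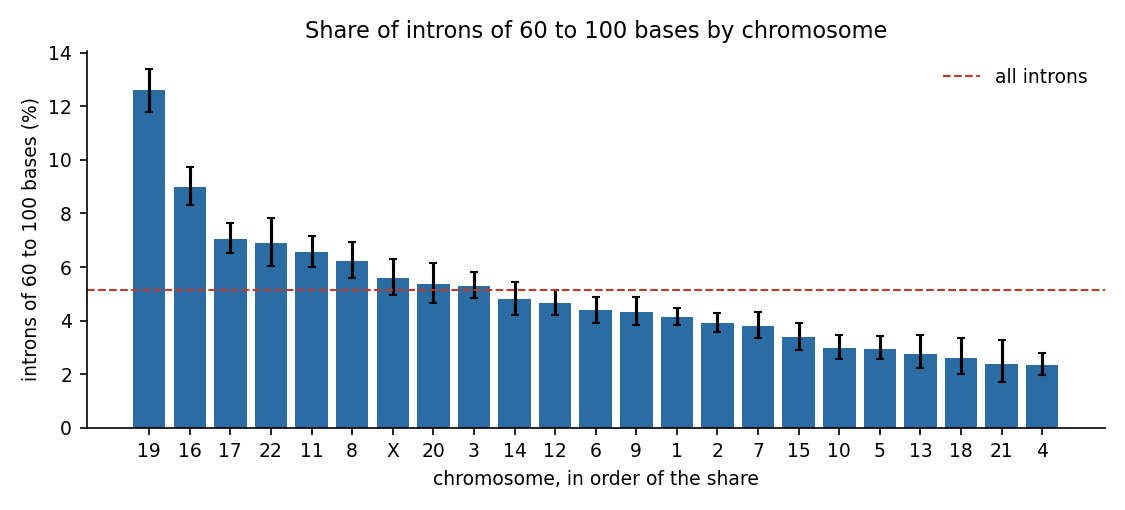
Share of introns that are 60 to 100 bases long on each chromosome (bars, percent, with 95% Wilson intervals), in order of the share. Chromosome 19 is the highest at 12.6% and chromosome 4 the lowest at 2.35%, and the dashed line marks 5.13% for all introns.

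Single megabases carried much of this. The 50 windows of 1 Mb with most short introns, of 2366 with any intron, held 34.4% of all 7114 and 9.58% of all introns. Since those windows were picked by this count, the excess is a description. The leading window, at 145 Mb of chromosome 8 (hg19), held 159 of 395 (40.3%) in 29 genes with CPSF1, PLEC, RECQL4, BOP1 and DGAT1 in the lead, out of 300 on that chromosome. Next were 49 Mb of chromosome 3 with 91, led by LAMB2, 67 Mb of chromosome 16 with 89, led by FHOD1, 50 Mb of chromosome 22 with 81, led by SBF1, and 64 Mb of chromosome 11 with 75.

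Host gene functions were described with 35 gene lists, each read against 5.13% of introns and 27.7% of genes overall. Of these lists 22 lay above 5.13%, but for several of them the interval included it. Examples are solute carriers at 5.17% (interval 4.28 to 6.23%) and the PRMT5 methylosome and other PRMT genes at 5.30% (interval 2.59 to 10.5%). RNA-binding hnRNP genes held short introns in 15 of 19 genes and 26 of 206 introns (12.6%, interval 8.76 to 17.9%), led by HNRNPA3 with 5 of 9 (88, 81, 83, 88 and 87 bases) and HNRNPH1 with 3. Filamins, plakins and tubulins reached 11.2%, with FLNA 20 and PLEC 14 of 71, and 8.66% without FLNA. Plexins, semaphorins and ephrins, which guide axons and vessels, reached 10.1%, led by PLXNA3 with 12 and PLXNB2 with 7. Collagens held them in 25 of 30 genes and 10.1% of introns, and in 7.53% without COL7A1. Collagen genes had a median of 44 introns, against 9 for all genes with introns, which gives each gene more places for a short one. Laminins and integrins reached 9.24%, with LAMA5 22 and LAMB2 18 of 78, and 7.32% without LAMA5. Lysosomal genes reached 8.61%, and 7.11% without GNPTG. Fatty acid and sterol synthesis genes gave 8.86%, but 5.38% without FASN, so that 1 gene carried most of the excess. A list of 4 myeloid marker genes, 4 of 28 introns, is too small to read.

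Lists of splicing genes lay on both sides of the overall share. The U2, U5, tri-snRNP and PRP19 list held short introns in 30 of 62 genes and 7.61% of introns (interval 6.11 to 9.45%). XAB2 led with 7, followed by PRPF8, the catalytic core protein, with 6 of 42, level with RBM10 (6 of 24). SR proteins and SR-related proteins were below the overall share at 3.49% (9 of 28 genes, interval 1.96 to 6.14%), an interval that includes 5.13%. In the Sm, LSm and SMN complex list, which includes known substrates of PRMT5, 1 of 160 introns was short (0.625%, interval 0.110 to 3.45%), in LSM7. Zinc finger genes named ZNF were also low at 2.72% (32 of 312 genes, interval 2.06 to 3.59%), with 11 of the 48 in ZNF335. Oxidative phosphorylation genes held them in 7 of 67 genes and 3.85% of introns, led by CYC1 with 4. NDUFS1 (2 of 17) and NDUFS8 (2 of 6) followed.

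**Figure D5:**
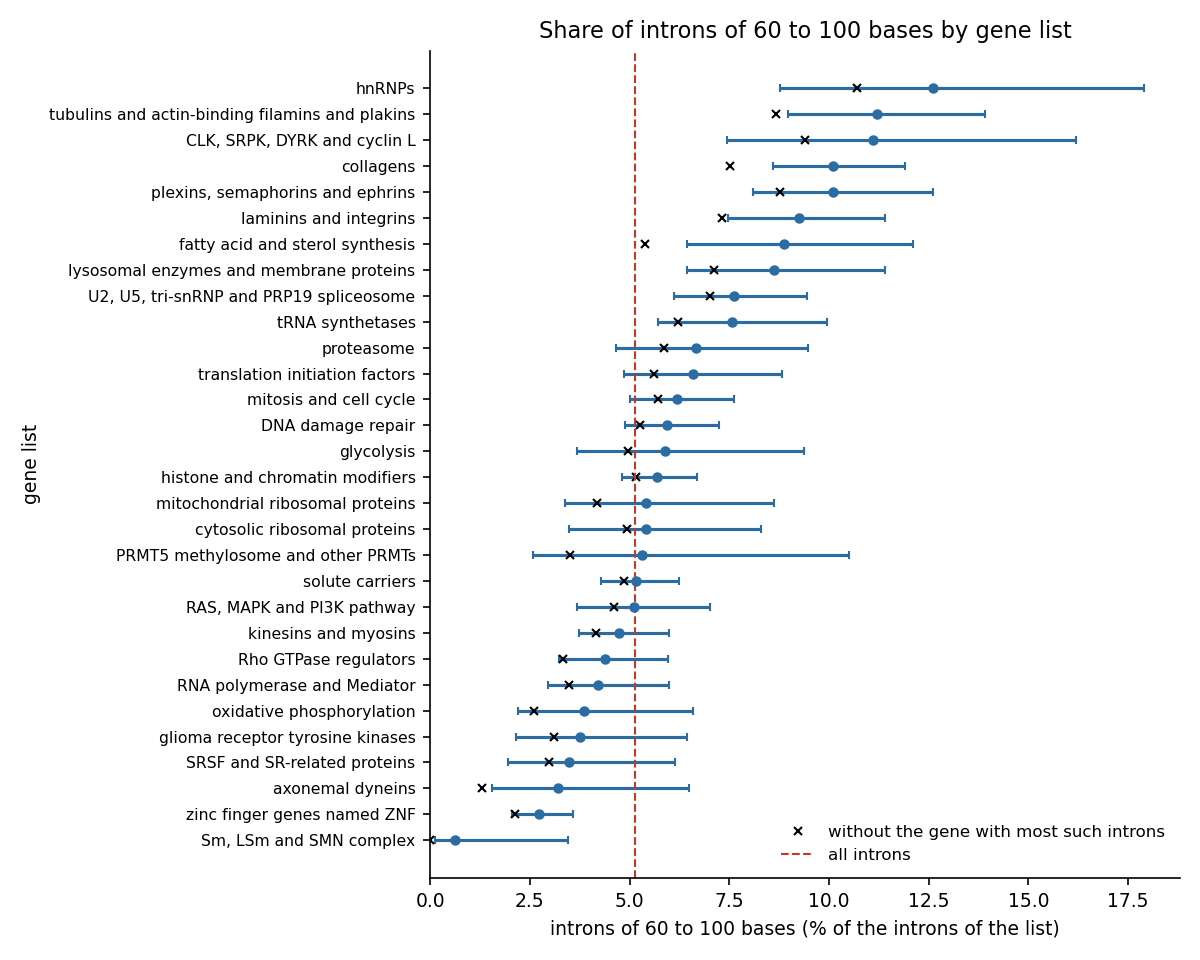
Share of introns that are 60 to 100 bases long in each gene list with at least 100 introns (blue points, percent, with 95% Wilson intervals), and without the gene that holds most of them (black crosses). The hnRNP list is the highest at 12.6% and the Sm, LSm and SMN list the lowest at 0.625%, and the dashed line marks 5.13% for all introns.

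The gene of the inhibited enzyme itself held a run of 3. PRMT5 introns 9, 10 and 11 of 18 were 94, 86 and 86 bases long, at hg19 chr14:23393747-23393840, chr14:23393602-23393687 and chr14:23393393-23393478 on the minus strand. Exons of 78 and 59 bases precede the first and the second of them, and an exon of 176 bases follows the third. The exon of 59 bases is shorter than either intron beside it. Its partners WDR77 and CLNS1A, with 10 and 6 introns, held none.

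The CLK kinases, which phosphorylate SR proteins, each held at least 1, and some pairs of genes had them between exons of equal length. CLK1 intron 6 (88 bases) and CLK4 intron 8 (87 bases) both lay between exons of 117 and 167 bases, and CLK1 intron 8 (79 bases) and CLK3 intron 8 (92 bases) both lay between exons of 95 and 130 bases. CLK2 had 1 of 94 bases behind an exon of 130 bases, and CLK4 a second of 86 bases, its last. The list of CLK, SRPK, DYRK and cyclin L genes as a whole held them in 11 of 17 genes and 11.1% of introns (interval 7.45 to 16.2%), led by CDK11B with 5 of 17 and DYRK1B with 4 of 11. Among SR proteins, SRSF5 held 1 of 88 bases at its last position and SRSF7 the 66-base one, while SRSF1, SRSF2, SRSF3, SRSF4, SRSF6, SRSF9, SRSF10 and SRSF11 held none. MDM4, an inhibitor of p53, and CDK4, a cell cycle kinase, held none among 9 and 7 introns.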

How the data were processed

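Poly(A) RNA of 6 libraries was sequenced. Tools listed by the submitters' processing notes are RSEM, DESeq 1.10.1, bedtools 2.20.1, the aligners STAR 2.4.1d and Bowtie 1.0.1, with hg19 (GRCh37). Their roles are not given in the sources used here. The deposited file has 382567 exon rows, and its values are positions in bases, an exon's start and its end. Rows were split into 31659 isoforms, and 76 rows with the end before the start were dropped. Consecutive exons overlapped in 10093 places, where no gap was taken and the exons were merged. Expression tables were not analysed here.

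Of 12462 gene names with introns, 11495 matched GENCODE v29 (GRCh38), and 54 on another chromosome or strand were left out. Lengths were compared, never positions. Sequences are GENCODE's; those of introns not inside a GENCODE exon, and a genome of the files' build, were not used here.

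No test was run: the annotation has no replicates, and genes are not replicates of a condition. The members, the lists and the comparisons with the reference were chosen with earlier results of these data known. Genes were named by rule: the 10 with most short introns, the 3 longest runs, genes with at least 3 introns that were all short, the 2 leading genes of each list, the 3 leading genes on the 3 highest chromosomes, and PRMT5, WDR77, CLNS1A, the CLK genes, SRSF1 to SRSF11, MDM4 and CDK4. Ties among the 10 and on the chromosomes went to the larger share of the gene's introns. Ties within lists and among runs went to the first name in alphabetical order. ANKRD36B, PKD1, FLII, RBM10 and NDUFS8 were named after the values were seen. Lists on myeloid, endothelial, neuron, astrocyte and oligodendrocyte markers held 3 to 7 genes each. Python 3.11.15 and numpy 2.4.6 were used. On simulated exons 2584 of 2584 planted gaps of 60 to 100 bases were recovered.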

Additional observations from a re-analysis of the deposited data

How the results depend on the processing

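Alternatives were other gap rules, other length windows, other genes and other measures. The share of short introns was 5.37% without isoforms that have overlapping exons and 5.35% among gaps with a reference length, in both cases with fewer introns counted. Genes with at least 2 numbered 904 at 70 to 90 bases, and genes with at least 3 numbered 432 at 70 to 90 and 1153 at 50 to 120 bases. The neighbour share, counted over pairs as above, was 13.2% at 70 to 90 bases and 21.4% at 50 to 120, beside 12.5% and 21.3% for the other introns of the isoform. For those other introns it was 17.6% (neighbours 17.4%) without first introns and 15.5% without COL7A1 and 3 ANKRD36 genes, both alternatives added after seeing the data. As a share of genes, chromosomes 19, 16 and 4 gave 43.3%, 37.0% and 19.5%, where 19, 16 and 17 stayed the highest and 4 the lowest. The remaining 30 values stayed within their limits, which were the interval for shares, a fixed factor for counts, and the SD for exon lengths and position. The SD over genes was 0.755 for an exon length difference of -0.103 and 0.305 for a position difference of 0.0736. Limits that wide could hardly be left, so staying within them says little about those values. Direction was checked only for the exon length and position differences, and neither changed sign. The neighbour share lay above that of the other introns at 70 to 90 bases and below it without first introns. The exon length difference was -0.0436 with medians, against -0.132 with terminal exons. No paired analysis was possible because the annotation has no column of a library.

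Depth is unknown. Levels of introns in the groups were not analysed here. Introns below 70 bases are few here, so nothing is described for that class beyond its count and its match to the reference. Near-identical gene copies such as ANKRD36 and ANKRD36C were counted as separate genes.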
